A study of Mus musculus with 35 samples.

Results

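Microglial identity and activation genes were followed in laser-dissected lumbar motoneurons of SOD1 G93A mice, a model of ALS. The members were 37 genes, listed by role: homeostatic genes of resting microglia, identity and leukocyte surface genes, Trem2 signalling and disease-associated genes, Fc receptors, microbial sensors, and phagocytic and lytic effectors. A probe set was taken when the array annotation gave it exactly 1 gene and that gene was a member, which gave 66 of the 45101 probe sets, 34958 of which name 1 gene. All 37 genes were represented, 15 of them by more than 1 probe set. Complement and cathepsin genes were not included. The methods kept probe sets that were brighter than the 20th centile of all values on 4 or more arrays and whose SD reached the 30th centile. By this filter 52 probe sets of 35 genes remained. The single probe sets of P2ry12 and Itgam did not pass it.

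The study compared 5 groups of mice, with 1 array per mouse. WT mice of week 11 (n = 6) and WT mice of week 15 (n = 7) were C57BL/6J littermates without the transgene. No sex, pump or treatment was stated for them. SOD1 mice of week 11 (n = 8) were hemizygous females with a high copy number of mutant human SOD1 (strain B6.Cg-Tg(SOD1-G93A)1Gur/J) and were not treated. Mice of the same strain received vehicle (n = 7) or G-CSF, given as filgrastim (n = 7), from subcutaneous osmotic minipumps between weeks 11 and 15 and were taken at week 15. The transgene is carried by every cell of these mice and not by motoneurons alone. Each array holds the amplified RNA of 300 dissected cells of 1 mouse.

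Microglia are the resident macrophages of the central nervous system. In the healthy cord they carry the fractalkine receptor Cx3cr1, the ADP receptor P2ry12 and the surface protein Tmem119, and they depend on the growth factor receptor Csf1r and the transcription factor Spi1, also called PU.1. In mouse models of neurodegeneration, many microglia lose the homeostatic genes and gain a set that includes Clec7a, Itgax, Lpl, Cst7 and Axl. The gain of that set needs the receptor Trem2 and its adaptor Tyrobp. The dissected material was motoneurons, which do not normally make most of these transcripts. These are bulk samples, so more microglial cells or processes within the dissected outlines cannot be told apart from more RNA per cell.

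PU.1 binds purine-rich sites with the core GAGGAA. The promoter table of RefSeq (GRCm38.p6) held 32 promoters of 28 member genes, of which the 250 bases before each start were searched on both strands, as GAGGAA and TTCCTC. The core was present in 15 of 32 member promoters (46.9%), beside 23.3% of all 32851 promoters. The longer form GAGGAAGT, or ACTTCCTC on the other strand, was present in 1 of them (3.12%), that of Mmp12, beside 2.44% of all promoters. Of the 10 genes that rose at week 15, 7 had a promoter in the table and 2, Clec7a and Fcgr3, held the core. A match is a match of letters only and no evidence of binding. The other 5, Lgals3, Ly86, Lyz1, Lyz2 and Mpeg1, did not hold it. The sequences of Mmp12 and Lgals3 are given for the largest differences of weeks 11 and 15, and Clec7a as 1 of the 2 with the core, though its difference was smaller than those of the 5 without it. Capitals mark the core, and each sequence ends at the base before the start.
Mmp12, chr9:7344147-7344396, plus strand: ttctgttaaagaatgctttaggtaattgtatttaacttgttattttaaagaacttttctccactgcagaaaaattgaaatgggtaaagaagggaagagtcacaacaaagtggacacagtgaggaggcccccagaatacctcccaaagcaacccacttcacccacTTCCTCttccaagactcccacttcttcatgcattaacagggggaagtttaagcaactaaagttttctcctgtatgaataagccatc
Lgals3, chr14:47373610-47373859, plus strand: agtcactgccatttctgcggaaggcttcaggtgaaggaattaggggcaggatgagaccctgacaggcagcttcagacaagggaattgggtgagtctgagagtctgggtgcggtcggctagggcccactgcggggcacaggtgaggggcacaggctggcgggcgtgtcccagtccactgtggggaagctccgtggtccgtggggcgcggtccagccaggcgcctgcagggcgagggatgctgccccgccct
Clec7a, chr6:129472780-129473029, minus strand: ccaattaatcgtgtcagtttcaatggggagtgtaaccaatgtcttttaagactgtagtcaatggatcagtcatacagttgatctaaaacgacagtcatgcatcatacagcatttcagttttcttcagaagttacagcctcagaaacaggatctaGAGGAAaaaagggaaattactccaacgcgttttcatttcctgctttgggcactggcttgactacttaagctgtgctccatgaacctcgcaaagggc
The match in Mmp12 began 86 bases before its start and that in Clec7a 96 bases before, and the Lgals3 stretch held none. Mmp12 and Clec7a had 2 annotated starts each, of which 1 is shown. The other stretch of Mmp12 held no match, and that of Clec7a, which overlaps the one shown, held the same match.

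The values are log2 intensities after GCRMA, which corrects background by probe sequence. It brings all dim probe sets close to one floor, so folds against a group at that floor are poorly measured. The medians of the arrays were 3.19 to 3.47, and 32 of the 66 member probe sets were over the 20th centile of all values (2.40) on all 35 arrays. The mice of week 15 were another cohort, and a pump is stated for its SOD1 mice only, so week cannot be told apart from either. Nor can SOD1 genotype at week 15 be told apart from the pump and vehicle. A SOD1 effect of week 15, or its change between the weeks, is meant below with that limit. The 18S ribosomal RNA control read 10.12 ± 0.68 (SD, n = 6) in WT mice of week 11 and 13.13 ± 0.26 (SD, n = 7) in WT mice of week 15. It read 10.72 ± 0.62 (SD, n = 8) in SOD1 mice of week 11. It read 12.80 ± 0.35 in vehicle-treated and 12.70 ± 0.33 in G-CSF-treated mice (SD, n = 7 each). Beside these, 3 arrays stood apart from their groups over all probe sets, namely vehicle-treated mice 3 and 5, and mouse 6 among the WT mice of week 11.

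Microglial transcripts were higher in SOD1 mice of week 15, most clearly Lgals3, Tyrobp, the lysozymes and Ly86. Change was called with limma where the unadjusted p was under 0.05, the fold change was 1.5 or more, and the p adjusted by Benjamini-Hochberg over all 31306 tested probe sets was under 0.1. At week 15, 11 of the 52 member probe sets, of 10 genes, rose in vehicle-treated SOD1 mice against WT (21.2%), where 1.69% of all probe sets rose. None fell, where 4.18% of all did, and 1 had an unadjusted p under 0.05 in that direction, beside 10.4% of all. The median log2 difference of the members was 0.32, beside 0.02 over all probe sets, and 48 of 52 were above 0. At week 11, before motor signs, 2 members rose (3.85%), beside 1.13% of all probe sets, and none fell, beside 0.188%. At an unadjusted p under 0.05, 4 of the 52 were higher and 3 lower at week 11, where 6.58% and 4.42% of all probe sets were. The median there was 0.09, beside -0.01 over all. No member was called for G-CSF against vehicle, in which comparison 0.0128% of all probe sets were called higher and 0.0256% lower.

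**Figure D1:**
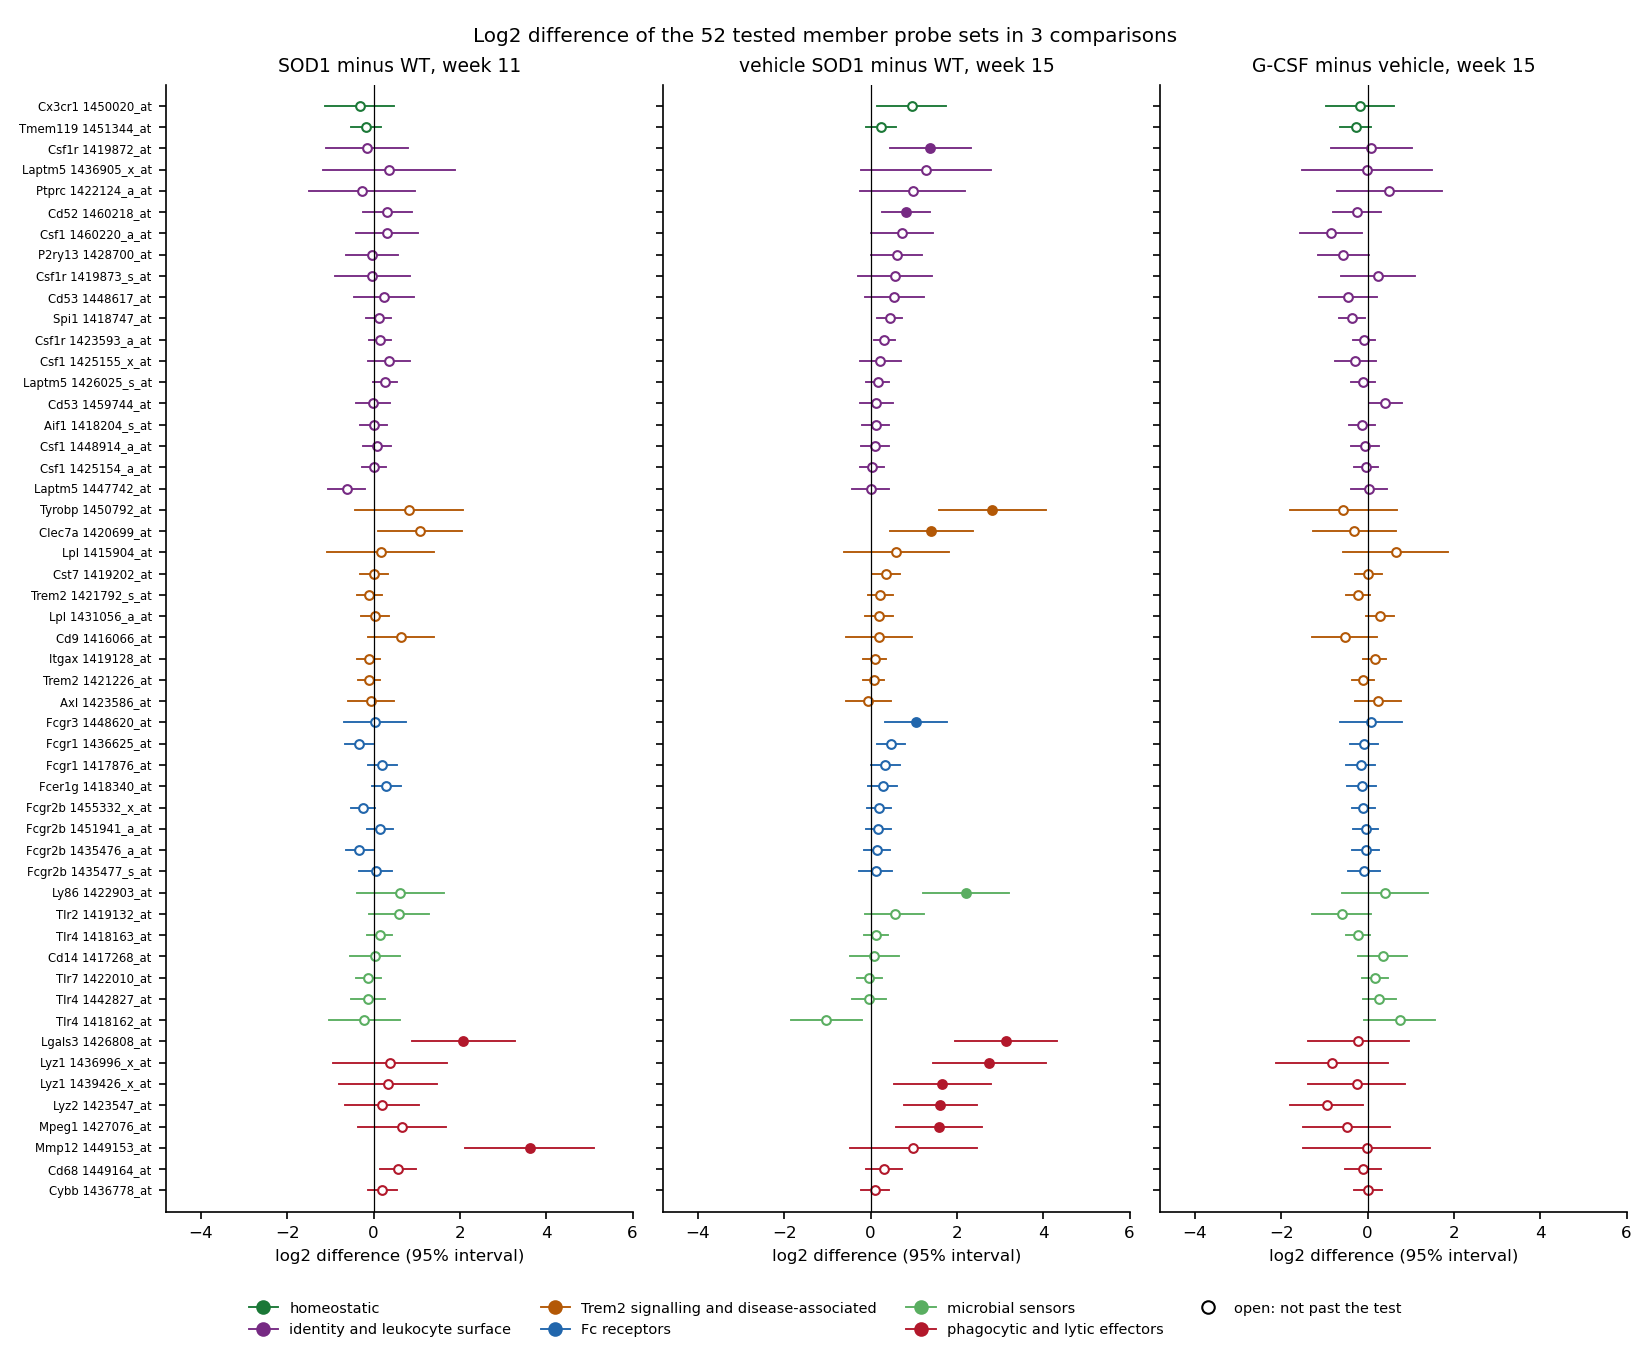
Log2 differences of the 52 tested member probe sets in 3 comparisons, ordered by role and by the week 15 difference. Points are limma estimates with 95% intervals, filled where the probe set passed the test (2 at week 11, 11 at week 15, 0 for G-CSF against vehicle).

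Cx3cr1 and Tmem119, the tested homeostatic genes, were not lower in SOD1 mice at week 15. WT mice of that week had medians of 3.54 and 3.52 there, beside array medians of 3.19 to 3.47. With WT levels this dim, a loss could hardly have been measured. At 1450020_at, the brighter probe set of Cx3cr1, WT mice of week 15 lay between 3.05 and 3.98 with a median of 3.54, and vehicle-treated mice between 3.59 and 5.55 with a median of 4.70. The groups overlapped, with 5 of 7 vehicle-treated mice above all WT mice. The log2 difference of 0.95 (95% interval 0.16 to 1.74) had an adjusted p of 0.164 and did not pass the test. At week 11 WT mice lay between 3.45 and 5.65 (median 3.87) and SOD1 mice between 3.31 and 4.46 (median 3.83). The difference of -0.32 (95% interval -1.12 to 0.48) did not pass either (adjusted p = 0.86), and nor did the change of this effect between the weeks, 1.27 (adjusted p = 0.222). The second probe set of Cx3cr1, 1450019_at, varied too little to pass the filter and had group medians between 2.32 and 2.64.

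Tmem119 lay close to its WT level in all groups. Values in WT mice of week 15 lay between 3.28 and 3.62 (median 3.52), vehicle-treated mice between 3.10 and 4.33 (median 3.87) and G-CSF-treated mice between 3.19 and 3.86 (median 3.39). The ranges of the 3 groups overlapped, and the difference of vehicle against WT was 0.25 (95% interval -0.10 to 0.60, adjusted p = 0.444). At week 11 the medians were 3.57 in WT mice, between 3.49 and 4.25, and 3.43 in SOD1 mice, between 3.19 and 4.27, with a difference of -0.17 (95% interval -0.53 to 0.18). P2ry12 was dim on all arrays, at 2.01 to 3.11, close to the 20th centile. Its group medians were 2.59 and 2.49 in WT and SOD1 mice of week 11, and 2.42, 2.65 and 2.63 in WT, vehicle-treated and G-CSF-treated mice of week 15. Since GCRMA leaves little room below such levels, a loss of P2ry12 could not have been measured here.

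**Figure D2:**
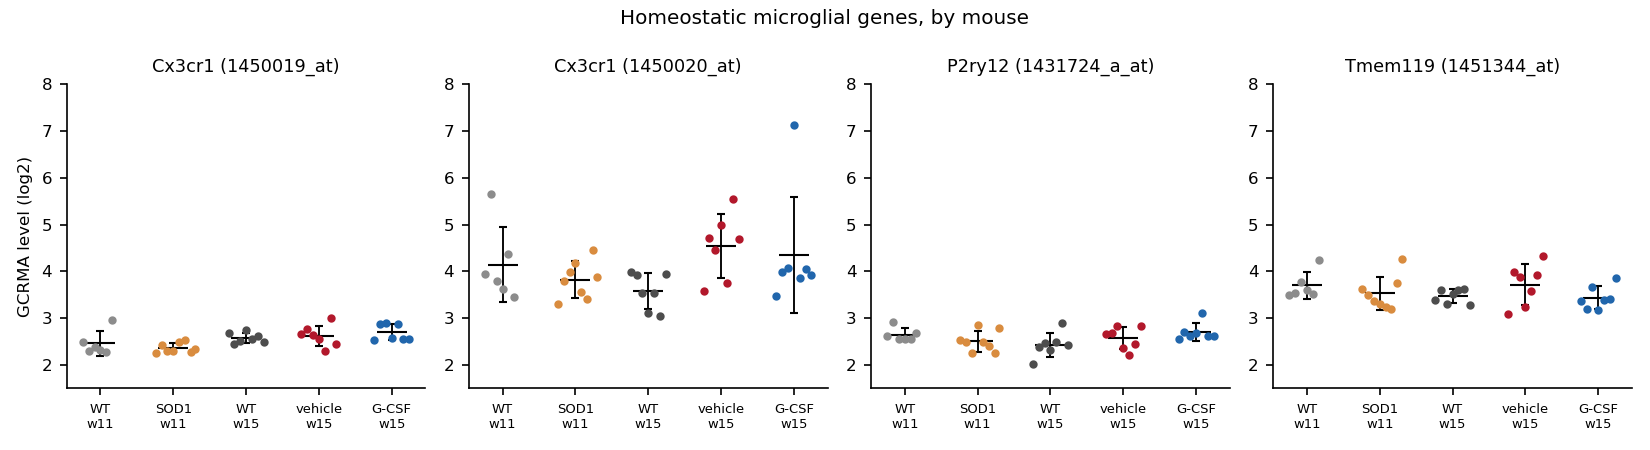
GCRMA level (log2) of the homeostatic probe sets, 1 point per mouse and group, with the mean and SD as black lines. Only 1450020_at of Cx3cr1 shows a spread above the low level, with G-CSF-treated mouse 4 at 7.12.

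Among the identity and surface genes, Csf1r and Cd52 rose at week 15. Csf1r, the receptor for Csf1 and Il34 on which microglia depend for survival, lay at 1419872_at between 6.56 and 7.50 in WT mice (median 7.22) and between 6.34 and 9.73 in vehicle-treated mice (median 8.82). Vehicle-treated mouse 1 was below all WT mice and the other 6 were above them. The difference was 1.39 (95% interval 0.45 to 2.33, adjusted p = 0.0838), and its call was kept in 2 of 8 other settings and in 24 of 35 fits that left out 1 mouse. The other probe sets of Csf1r gave 0.56 at 1419873_s_at (adjusted p = 0.48) and 0.32 at 1423593_a_at (adjusted p = 0.137), in the same direction and below the test. In SOD1 mice of week 11, 1419872_at lay between 6.04 and 8.95 (median 7.84), against 6.93 to 8.41 in WT mice (median 7.60), and did not differ by more than the spread (difference -0.15, adjusted p = 0.958). Cd52, a small glycosylated surface peptide of leukocytes, lay between 2.64 and 3.09 in WT mice (median 2.81) and between 2.87 and 4.70 in vehicle-treated mice (median 3.39). It was above all WT mice in 6 of 7. The difference was 0.81 (95% interval 0.26 to 1.37, adjusted p = 0.0868), and it did not pass without the 3 arrays that stood apart, at 0.53 (adjusted p = 0.32). The call of Cd52 was kept in 25 of 35 fits that left out 1 mouse and in 2 of 8 other settings. At week 11 the probe set of the identity genes farthest from 0 was 1447742_at of Laptm5, at -0.63 (95% interval -1.05 to -0.20, adjusted p = 0.183), with 7 of 8 SOD1 mice below all WT mice. The highest WT mouse there was mouse 6 (5.72), whose array stood apart. The other 2 tested probe sets of Laptm5 were above 0 at week 11, up to 0.36, so the gene had no single direction.

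The remaining 7 tested genes of this role did not pass at week 15, though all 15 of the role's uncalled probe sets, 2 of them of Csf1r, were above 0, from 0.00 to 1.28. The highest was 1436905_x_at of Laptm5, a lysosomal membrane protein of leukocytes. It lay between 2.69 and 5.24 in WT mice (median 4.27) and between 2.70 and 7.88 in vehicle-treated mice (median 5.98), and the difference of 1.28 was smaller than its error allowed to call (95% interval -0.23 to 2.79, adjusted p = 0.348). Spi1 itself differed by 0.44 (95% interval 0.15 to 0.73, adjusted p = 0.0734), a 1.36-fold difference and below the fold asked for. P2ry13, a nucleotide receptor, differed by 0.61 (adjusted p = 0.246), and Aif1, which encodes the microglial marker Iba1, by 0.12 (adjusted p = 0.706). Ptprc, the leukocyte antigen CD45, was raised in single mice only. At 1422124_a_at WT mice of week 15 lay between 2.07 and 2.54 (median 2.41) and vehicle-treated mice between 2.22 and 6.65 (median 2.33), with only mice 3 (6.65), 4 (4.73) and 7 (2.66) above all WT mice. The tetraspanin Cd53 differed by 0.55 and 0.14 at its 2 probe sets. Itgam, the integrin chain CD11b, was not tested.

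Csf1, the ligand of Csf1r, gave its largest difference under G-CSF. At 1460220_a_at, vehicle-treated mice lay between 5.86 and 8.64 (median 7.72), G-CSF-treated mice between 5.38 and 7.71 (median 6.79) and WT mice of week 15 between 6.40 and 7.37 (median 6.63). The ranges of all 3 groups overlapped. The difference of G-CSF against vehicle was -0.84 (95% interval -1.56 to -0.12), with an unadjusted p of 0.0228 and an adjusted p of 0.517. All 4 probe sets of Csf1 were below 0 in that comparison, the other 3 between -0.28 and -0.03.

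Among Trem2 signalling and disease-associated genes, Tyrobp and Clec7a rose at week 15 and the other 6 did not pass. Tyrobp, also called DAP12, passes the signal of Trem2 and of other receptors into the cell. Its level in WT mice of week 15 lay between 3.04 and 4.31 (median 3.63) and vehicle-treated mice between 3.80 and 8.52 (median 6.27). Vehicle-treated mouse 1 (3.80) lay within the WT range and the other 6 mice, from 5.61, lay above it. The difference was 2.82, a 7.08-fold difference (95% interval 1.58 to 4.06, adjusted p = 0.00741). At week 11 SOD1 mice lay between 3.24 and 5.97 (median 4.25) and WT mice between 3.13 and 4.07 (median 3.77). The groups overlapped, with 6 of 8 SOD1 mice above all WT mice, and the difference of 0.83 did not pass (adjusted p = 0.7). The change of the SOD1 effect between the weeks, 2.00 (95% interval 0.24 to 3.76), did not pass the test over all probe sets (adjusted p = 0.22).

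Clec7a, the beta-glucan receptor dectin-1, lay between 2.68 and 3.81 in WT mice of week 15 (median 3.06) and between 2.94 and 6.97 in vehicle-treated mice (median 4.58). It was above all WT mice in 4 of 7, and the difference was 1.41 (95% interval 0.45 to 2.37, adjusted p = 0.0858). This call was kept in 2 of 8 other settings and in 26 of 35 fits that left out 1 mouse. At week 11, WT mice lay between 2.91 and 3.79 (median 3.29) and SOD1 mice between 3.10 and 6.11 (median 4.41), with 5 of 8 above all WT mice. This was the largest difference at week 11 that did not pass, 1.07 (95% interval 0.10 to 2.04, adjusted p = 0.384). Trem2 itself differed at week 15 by 0.07 and 0.23 at its 2 probe sets, with upper interval bounds of 0.32 and 0.51. Cst7, a cysteine protease inhibitor, differed by 0.36 (95% interval 0.04 to 0.67, adjusted p = 0.201). Itgax, the integrin chain CD11c, differed by 0.09, lipoprotein lipase Lpl by 0.60 and 0.20, the tetraspanin Cd9 by 0.20 and the receptor tyrosine kinase Axl by -0.05. None of these passed.

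Fc receptors bind antibody on opsonised targets, and Fcer1g is the signalling chain of the activating ones. At week 15, 1 of the 8 tested probe sets rose, that of Fcgr3, and all 8 were above 0. WT mice lay between 2.50 and 3.48 at Fcgr3 (median 2.90) and vehicle-treated mice between 2.77 and 6.59 (median 3.65). Mouse 7 (6.59) stood above the next mouse at 4.44, and the difference of 1.05 (95% interval 0.33 to 1.76, adjusted p = 0.087) was 0.62 and no longer passed without it. The call of Fcgr3 was kept in 28 of 35 fits that left out 1 mouse and in 2 of 8 other settings. Fcgr1, the high-affinity receptor, was the only member whose SOD1 effect differed between the weeks. At 1436625_at WT mice of week 11 lay between 4.09 and 4.69 (median 4.23) and SOD1 mice between 3.84 and 4.12 (median 4.00), with 6 of 8 below all WT mice. At week 15 WT mice lay between 3.71 and 4.41 (median 4.29) and vehicle-treated mice between 4.04 and 5.40 (median 4.52), with 4 of 7 above all WT mice. The difference of the effects was 0.80 (95% interval 0.35 to 1.26, adjusted p = 0.0748). That is 1 of 52 members (1.92%), in a comparison in which 0.767% of all probe sets had a higher and 2.13% a lower effect at week 15. Neither single effect passed, at -0.33 at week 11 (adjusted p = 0.438) and 0.47 at week 15 (adjusted p = 0.0852, 1.39-fold), and the call was lost without any of 7 single mice, with a replicate block, with the 18S covariate and without the 3 arrays that stood apart. The other probe set of Fcgr1, 1417876_at, differed by 0.20 at week 11, opposite in sign to 1436625_at, and by 0.35 at week 15. The inhibitory receptor Fcgr2b, at 4 probe sets, differed by 0.12 to 0.19 at week 15, and Fcer1g by 0.28. None of these passed.

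Of the microbial sensors, Ly86 rose at week 15 without overlap between the groups. Ly86, or MD-1, is the secreted partner of the receptor Cd180 on myeloid and B cells. WT mice lay between 4.30 and 4.70 (median 4.59), vehicle-treated mice between 5.41 and 8.72 (median 6.36) and G-CSF-treated mice between 5.44 and 9.08 (median 6.70). All 14 SOD1 mice of week 15 were above all 7 WT mice. The difference of vehicle against WT was 2.21, a 4.63-fold difference (95% interval 1.21 to 3.21, adjusted p = 0.00909). In WT mice of week 11 the values lay between 4.44 and 6.04 (median 5.42), which overlaps the WT range of week 15, and SOD1 mice of that week lay between 4.40 and 7.34 (median 5.95). The difference at week 11 was 0.62 (adjusted p = 0.733), and that between the WT groups -0.77 (95% interval -1.81 to 0.27, adjusted p = 0.474).

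The Toll-like receptors and Cd14 did not pass at week 15. Tlr2 differed by 0.56 (adjusted p = 0.365), Cd14, the lipopolysaccharide co-receptor, by 0.09, and Tlr7, a sensor of single-stranded RNA, by -0.03. At 1418162_at, 1 of 3 tested probe sets of Tlr4, the lipopolysaccharide receptor, all vehicle-treated mice (1.85 to 2.07, median 1.95) were below all WT mice (2.21 to 5.20, median 2.31). Both groups were mostly under the 20th centile, with WT mice 4 (4.26) and 5 (5.20) above it by over 1 log2 unit, and the difference of -1.02 (95% interval -1.84 to -0.21) had an adjusted p of 0.145. The other probe sets of Tlr4 gave 0.13 and -0.03.

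The phagocytic and lytic effectors held the largest differences, with 5 of 8 probe sets, of 4 of 7 genes, higher at week 15. Lgals3 encodes galectin-3, a sugar-binding protein of activated microglia and macrophages. At week 15 WT mice lay between 2.98 and 4.68 (median 3.67) and vehicle-treated mice between 5.16 and 7.85 (median 7.14), without overlap. The difference of 3.15, or 8.85-fold (95% interval 1.97 to 4.33, adjusted p = 0.00187), was the only one of the members that also passed Tukey's comparison, which the methods used. Lgals3 rose at week 11 too. WT mice lay between 3.03 and 5.04 (median 4.03) and SOD1 mice between 3.37 and 7.24 (median 6.79), with 7 of 8 above all WT mice and mouse 2 (3.37) within their range. The difference of 2.08 (95% interval 0.88 to 3.27, adjusted p = 0.0909) was close to the threshold, and its call was kept in 16 of 35 fits that left out 1 mouse and in 2 of 8 other settings.

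Mmp12, the macrophage metalloelastase, rose at week 11 and did not pass the test at week 15. All WT mice lay near the 20th centile, between 2.08 and 2.58 at week 11 (median 2.40) and between 2.27 and 2.73 at week 15 (median 2.44). In SOD1 mice of week 11 the values were 7.74, 2.18, 6.60, 7.81, 5.62, 2.24, 7.77 and 8.17. Mice 2 and 6 were thus at the WT level, and the other 6, from 5.62, were above all WT mice. The difference was 3.62 (95% interval 2.13 to 5.11, adjusted p = 0.0112), and it kept its call in 35 of 35 fits that left out 1 mouse. It did not pass in the fit on the groups of week 11 alone or with Tukey's comparison. Vehicle-treated mice of week 15 lay between 2.57 and 5.90 (median 2.95), with 4 of 7 above all WT mice, and the difference of 0.99 (95% interval -0.48 to 2.47) did not pass (adjusted p = 0.47). The SOD1 effect at week 15 was lower than at week 11 by a difference of -2.63 (95% interval -4.73 to -0.53), which did not pass over all probe sets (adjusted p = 0.179).

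Lyz1 and Lyz2 encode the lysozymes, which cleave bacterial cell walls, and Lyz2 is the lysozyme of macrophages and microglia. Their sequences are close, and 2 of the probe sets used are of a type that can bind related transcripts, so Lyz1 and Lyz2 signal cannot be separated with certainty. At 1436996_x_at, named Lyz1, WT mice of week 15 lay between 2.72 and 4.34 (median 3.61) and vehicle-treated mice between 4.75 and 7.83 (median 6.14), without overlap. The difference was 2.75 (95% interval 1.45 to 4.06, adjusted p = 0.0124). At 1439426_x_at they lay between 2.04 and 2.45 (median 2.14) and between 2.31 and 5.39 (median 3.99), a difference of 1.66 (95% interval 0.54 to 2.78, adjusted p = 0.0827), with 2 of 7 WT mice over the 20th centile. At the probe set of Lyz2 they lay between 2.29 and 2.88 (median 2.69) and between 3.34 and 6.17 (median 3.43), again without overlap. That difference was 1.62 (95% interval 0.77 to 2.47, adjusted p = 0.0229). Vehicle-treated mice 2, 6 and 7 were the 3 highest at Lyz2, from 5.04, while the other 4 lay between 3.34 and 3.43.

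At week 11, 1436996_x_at did not separate the genotypes, with WT mice between 3.68 and 6.16 (median 4.31) and SOD1 mice between 2.81 and 6.25 (median 5.12). WT mice of week 15 were lower at this probe set than WT mice of week 11 on average (difference -1.06, 95% interval -2.42 to 0.29, adjusted p = 0.442). The change of the SOD1 effect was 2.38 (95% interval 0.52 to 4.24, adjusted p = 0.171). Mpeg1 encodes perforin-2, a pore-forming protein of macrophages. It rose at week 15, from 2.69 to 3.29 in WT mice (median 2.89) to 2.74 to 6.17 in vehicle-treated mice (median 5.01), with 6 of 7 above all WT mice. The difference was 1.58 (95% interval 0.58 to 2.58, adjusted p = 0.0619). At week 11 it lay between 3.13 and 4.34 in WT mice (median 3.32) and between 3.06 and 5.91 in SOD1 mice (median 4.09), a difference of 0.66 that did not pass (adjusted p = 0.705). Cd68, a lysosomal glycoprotein and common marker of phagocytic microglia, differed by 0.57 at week 11 (95% interval 0.15 to 0.99, adjusted p = 0.237) and 0.32 at week 15 (adjusted p = 0.401). Cybb, the catalytic subunit of the phagocyte NADPH oxidase, differed by 0.11 at week 15.

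**Figure D3:**
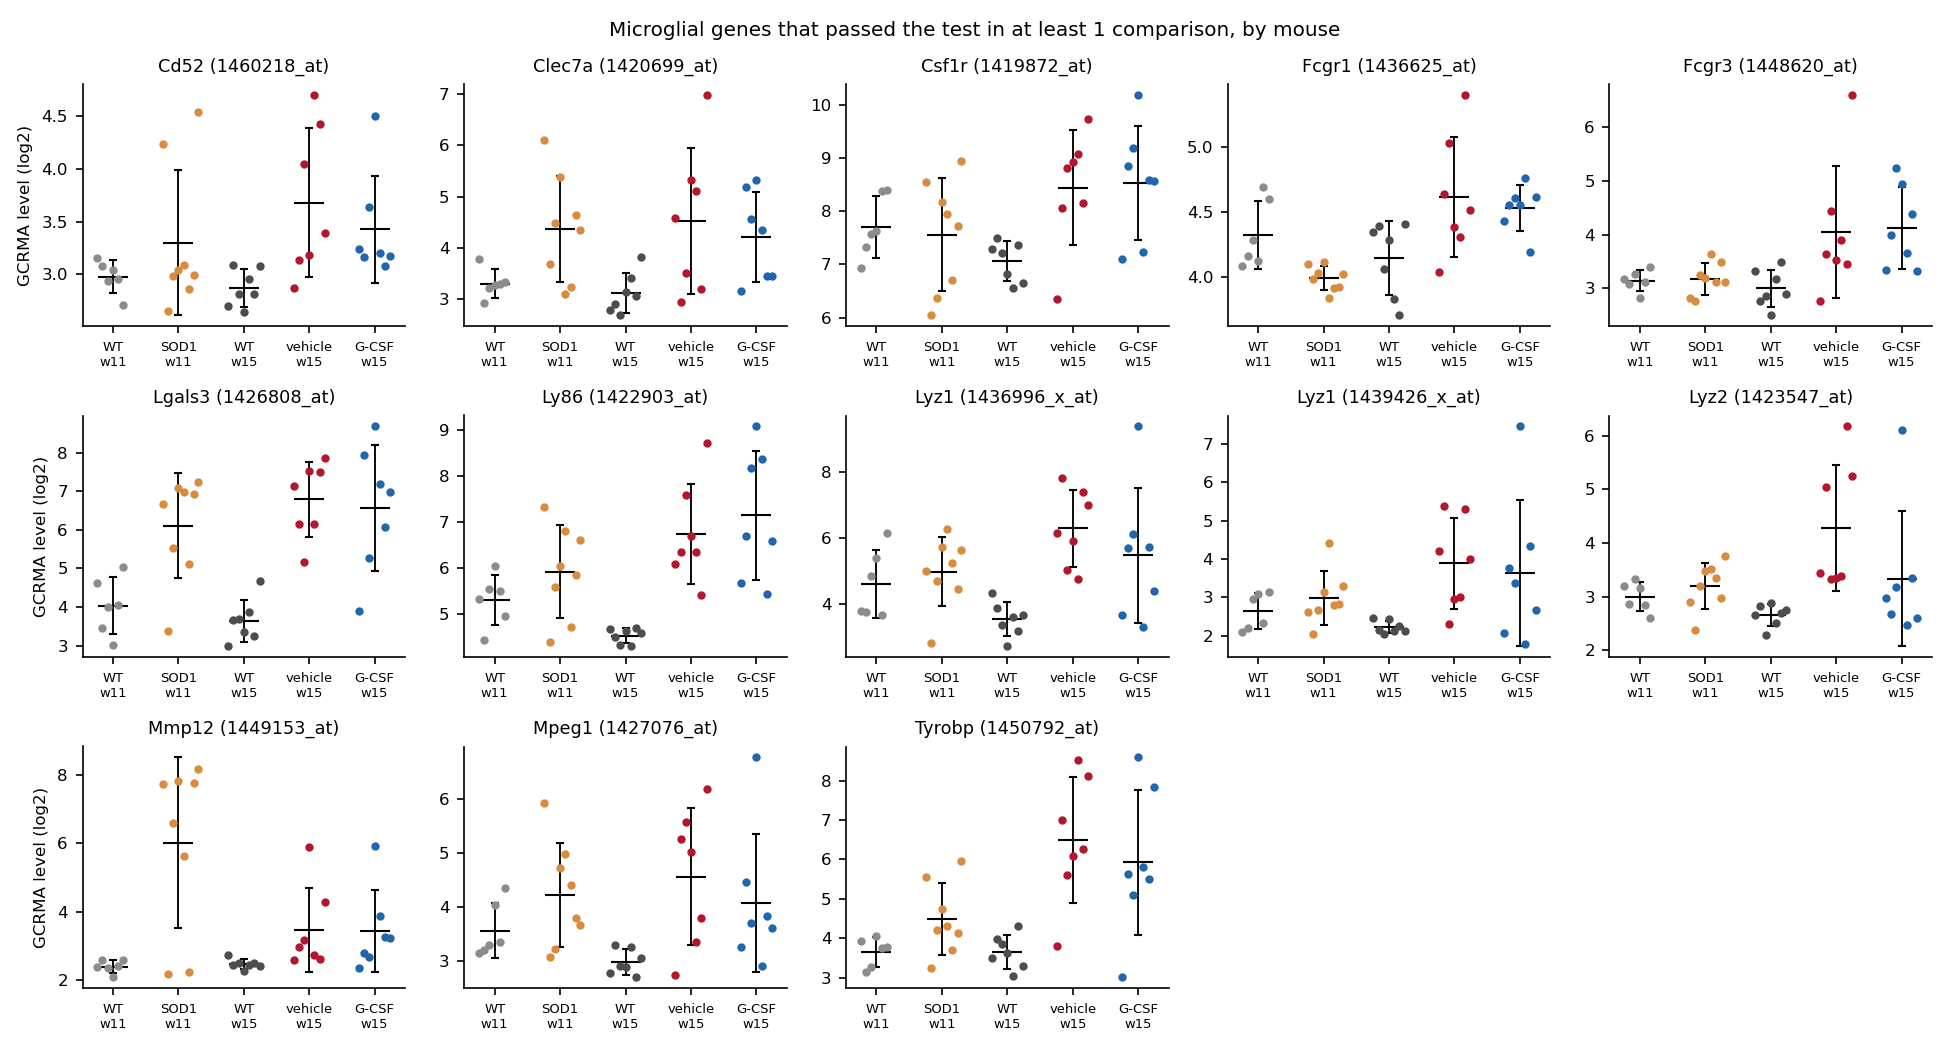
GCRMA level (log2, each panel with its own axis, which does not start at 0) of the 13 probe sets that passed in at least 1 comparison, 1 point per mouse, with the mean and SD as black lines. Mmp12 is high in 6 of 8 SOD1 mice of week 11, while in the other panels the highest mouse is a SOD1 mouse of week 15.

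Not every SOD1 mouse of week 15 carried the pattern to the same degree. Of the 11 probe sets that rose at week 15, vehicle-treated mice 4, 5 and 7 were above all WT mice of that week at all 11. Vehicle-treated mouse 1 was above them at 6, and mice 2, 3 and 6 at 10, 9 and 9. Over all 52 tested member probe sets, mouse 7 was the highest of its group at 19 and mouse 1 the lowest at 18. At week 11 SOD1 mouse 2 was the lowest of its group at 18 and SOD1 mouse 8 the highest at 16. In WT mice of week 11, mouse 6, the array that stood apart, was the highest at 26. Vehicle-treated mice 3 and 5, the other arrays that stood apart, were the highest at 7 and 8. Without these 3 arrays, 7 of the 11 probe sets kept their call at week 15, and those of Fcgr3 (1.00, adjusted p = 0.172), Clec7a (1.49, adjusted p = 0.115), Cd52 and Csf1r (1.18, adjusted p = 0.213) did not. With the 18S level as a covariate, 7 of 11 were kept too, and Clec7a (1.24, adjusted p = 0.139), Cd52 (0.74, adjusted p = 0.133), Csf1r (1.15, adjusted p = 0.145) and Mpeg1 (1.36, adjusted p = 0.107) were not.

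For an average over the members, each gene was centred on its mean over the 35 mice, with 1 probe set per gene, the brightest that passed the filter. The average of the 33 genes other than the homeostatic ones lay between -0.50 and -0.37 in WT mice of week 15 (median -0.44). It lay between -0.15 and 1.28 in vehicle-treated mice (median 0.31), above all WT mice in each. At week 11 it lay between -0.46 and -0.04 in WT mice (median -0.31) and between -0.57 and 0.52 in SOD1 mice (median 0.13), so the groups overlapped. The average of Cx3cr1 and Tmem119 lay between -0.51 and -0.06 in WT mice of week 15 (median -0.25) and between -0.48 and 0.91 in vehicle-treated mice (median 0.34). In vehicle-treated mouse 7, the highest for the 33 genes, it was 0.69, and in mouse 1, the lowest, -0.48. These averages hold genes from the comparisons above and were not tested.

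**Figure D4:**
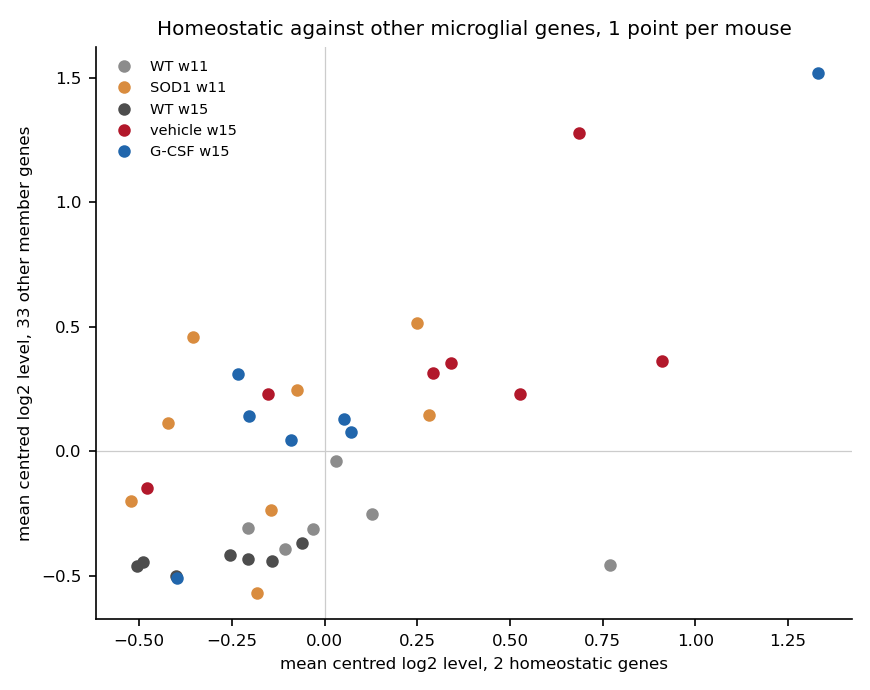
Mean centred log2 level of the 2 homeostatic genes that passed the filter (x axis) against that of the 33 other member genes (y axis), 1 point per mouse. WT mice of week 15 lie between -0.50 and -0.37 on the y axis, vehicle-treated mice between -0.15 and 1.28, and G-CSF-treated mouse 4 at 1.52.

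G-CSF treatment was not followed by a change that could be called in any member. With limma, 0 of 52 probe sets passed for G-CSF against vehicle, and Tukey's comparison also gave 0. At an unadjusted p under 0.05, 1 was higher and 3 were lower, where 4.3% and 4% of all probe sets were. The higher one was 1459744_at of Cd53 (0.41), and the lower ones belonged to Lyz2, Csf1 and Spi1. The median difference of the members was -0.09, beside -0.00 over all, and 35 of 52 were below 0. The largest was that of Lyz2, at -0.95 (95% interval -1.79 to -0.10, adjusted p = 0.54). G-CSF-treated mice lay there between 2.47 and 6.10 (median 2.97), and 5 of 7 were below all vehicle-treated mice. Lyz1 at 1436996_x_at lay between 3.29 and 9.37 (median 5.70) in G-CSF-treated mice, with a difference of -0.82 (95% interval -2.13 to 0.48, adjusted p = 0.768). Of the 11 probe sets that rose at week 15, 8 were below 0 and 3 above, from -0.95 to 0.40, and the intervals reached from -2.13 to 1.40. Both comparisons share the vehicle-treated mice. For 8 of the 11 the interval held 0 as well as differences of over 1 log2 unit.

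Single mice of both groups weighed on this comparison. G-CSF-treated mouse 4 was the highest of its group at 25 of 52 member probe sets and at 10 of the 11 that rose at week 15. At Cx3cr1 it read 7.12 where the other 6 lay between 3.48 and 4.07, and at Lyz2 6.10 where they lay between 2.47 and 3.35. Its array did not stand apart over all probe sets, with a mean correlation of 0.930 with its group, whose mice ranged from 0.895 to 0.939. Without mouse 4, the difference of G-CSF against vehicle was -1.41 for Lyz2 (95% interval -2.08 to -0.73, adjusted p = 0.177), -1.48 for Lyz1 at 1436996_x_at (adjusted p = 0.492), -0.93 for Mpeg1 (adjusted p = 0.608) and -0.64 for Cx3cr1 (adjusted p = 0.597). Still 0 of 52 passed the test. Vehicle-treated mouse 7 was in turn the highest of its group at 19 of 52 and at 6 of the 11. Leaving out G-CSF-treated mouse 4 alone thus removes the high mouse of 1 group only. Without vehicle-treated mouse 7 instead, 0 of 52 passed too. That mouse read 5.25 at Lyz2, 6.99 at Lyz1 (1436996_x_at), 6.17 at Mpeg1 and 4.70 at Cx3cr1. The means of its group were 4.28, 6.29, 4.56 and 4.54. Leaving it out therefore moves these differences up, opposite to leaving out G-CSF-treated mouse 4.

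Against WT, G-CSF-treated mice had 3 higher members of 52 (5.77%), beside 0.342% of all probe sets, and 0 lower, beside 0.763%. At an unadjusted p under 0.05, 16 members were higher and 0 lower, where 5.83% and 6.88% of all probe sets were. Ly86 differed by 2.61 (95% interval 1.61 to 3.61, adjusted p = 0.00706), with no overlap. Lgals3 lay between 3.89 and 8.68 in G-CSF-treated mice (median 6.99) and differed by 2.94 (95% interval 1.76 to 4.12, adjusted p = 0.011), with 6 of 7 above all WT mice. Tyrobp lay between 3.01 and 8.58 (median 5.63) and differed by 2.26 (95% interval 1.02 to 3.50, adjusted p = 0.0797), with mouse 1 below all WT mice and the other 6 above. Without mouse 4 the difference of Tyrobp was 1.82 (adjusted p = 0.161), and those of Ly86 and Lgals3 kept their call. The call of Tyrobp was kept in 25 of 35 fits that left out 1 mouse and in 5 of 8 other settings. The largest that did not pass were Lyz1 at 1436996_x_at, 1.93 (adjusted p = 0.166), Ptprc, 1.47 (adjusted p = 0.279), and Csf1r at 1419872_at, 1.47 (adjusted p = 0.138). Ptprc lay between 2.25 and 6.14 in these mice (median 3.22), and Csf1r between 7.10 and 10.18 (median 8.59).

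Between WT mice of week 15 and of week 11, 0 of 52 members passed in either direction with limma, beside 3.28% of all probe sets higher and 2.26% lower. At an unadjusted p under 0.05, 2 were higher and 0 lower, where 8.72% and 8.66% of all probe sets were, and Tukey's comparison gave 0. The median of the members was -0.08, beside -0.01 over all. Beside Lyz1 and Ly86, the largest difference was -0.69 for Csf1r at 1419873_s_at (95% interval -1.58 to 0.20, adjusted p = 0.45), where WT mice lay between 5.47 and 6.92 at week 11 (median 5.95) and between 4.83 and 5.70 at week 15 (median 5.34).

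A further list held 33 other microglial genes, of which 28 were found and 26 tested. Of the 26, 1 passed at week 11 in untreated and 1 at week 15 in vehicle-treated SOD1 mice against WT, where 1.69% of all probe sets rose at week 15 and 1.13% at week 11. At week 15 only Fcrls, an Fc receptor-like gene of resident microglia, rose, by 0.76 ± 0.22 (SE, adjusted p = 0.0488), and none fell. At week 11 only Gpnmb, a glycoprotein of lipid-laden phagocytes, rose, by 0.86 ± 0.19 (SE, adjusted p = 0.0266), and none fell. Cd180, the partner of Ly86, had a SOD1 effect that was higher at week 15 than at week 11 by 0.59 (adjusted p = 0.0903). It was the only 1 of the 26 called for that difference, where 0.767% of all probe sets were higher and 2.13% lower. Neither of its single effects passed, at -0.27 at week 11 (adjusted p = 0.434) and 0.33 at week 15 (adjusted p = 0.132). The median difference of the list was 0.21 at week 15 and -0.05 at week 11, and no gene passed for G-CSF against vehicle.

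Markers of cells near motoneurons were read for the same mice. Of 7 astrocyte markers only Gfap rose, by 2.14 at week 11 (adjusted p = 0.0704) and 3.70 at week 15 (adjusted p = 0.000299), with no marker lower in either comparison. The mean level of the astrocyte markers by mouse lay between 7.29 and 8.18 in WT mice of week 15 and between 7.75 and 8.74 in vehicle-treated mice. Of the border macrophage and monocyte markers, 5 of 7 were found and 3 tested, and none passed in any comparison. Their mean level lay between 2.49 and 2.87 in WT mice of week 15 and between 2.60 and 3.20 in vehicle-treated mice, with group means of Mrc1 between 2.26 and 2.43 and of Cd163 between 2.02 and 2.28, under or near the 20th centile. Of 8 neutrophil markers found, 5 were tested and none passed, with group means of S100a8 between 2.30 and 2.69. No endothelial marker passed, and no oligodendrocyte marker passed between SOD1 and WT mice of either week. Of 2 tested lymphocyte markers, Ighm fell by 1.54 at week 11 (adjusted p = 0.0854) and by 2.92 at week 15. Of the 7 motoneuron markers, Chodl, a lectin-like protein of fast motoneurons, fell by 2.89 at week 15 (adjusted p = 4.48e-06), and of 6 neuronal markers Nefm and Rbfox3 fell at week 15, by 0.90 and 0.76, while Eno2 rose by 1.09 at week 11 (adjusted p = 0.0168). The part of other cells, of the pump, of cohort and of the 18S level in the microglial differences was not tested beyond the values given.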

How the data were processed

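Lumbar motoneurons of 35 mice were laser-dissected and their amplified RNA was hybridized, 1 array per mouse. GCRMA was run by the authors in Expression Console, whose version is not given in the sources used here, and what they deposited is log2 signal for 45101 probe sets, 64 of them controls, unfiltered.

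Genes were assigned through the platform annotation, with symbols updated from RefSeq gene numbers, and 932 probe sets with several genes could not be members. The filter, without controls, kept 31306 probe sets. A model with a mean for each group and 6 contrasts was fitted in limma 3.58.1 under R 4.3.3. Adjusted p-values were taken over all tested probe sets, intervals are 95% intervals of that model, and the thresholds are those of the methods, whose own test, Tukey's comparison, was an alternative. The fit was tested on simulated data. Tables and plots were made in Python 3.11.15 (pandas 2.3.3, matplotlib 3.10.9).

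The members and lists were chosen with earlier results of these data known. Every member passing in a contrast, each homeostatic probe set and up to 3 others per contrast with the largest difference are given with their values, and the rest in less detail. Other alternatives were no filter, quantile normalization, array weights, a replicate block, leaving out the 3 arrays that stood apart, an 18S covariate, a fit on fewer groups, and leaving out each mouse. Replicate numbers only name mice: in 5 comparisons no pair of mice with the same number had deviations that correlated over 0.1.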

Additional observations from a re-analysis of the deposited data

Results flagged for a closer look

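For 20 probe sets and the 5 groups, 100 sets of mice were screened for 1 value far from the others (Dixon's criterion at the 95% level), and 7 were found (7%), where chance gives about 1 in 20. Of these, 5 came from G-CSF-treated mouse 4. It read 7.12 at Cx3cr1 (1450020_at), with the other 6 mice between 3.48 and 4.07. It read 6.10 at Lyz2 (1423547_at), where the others lay between 2.47 and 3.35. It read 6.76 at Mpeg1 (1427076_at, others 2.90 to 4.46), 5.92 at Mmp12 (1449153_at, others 2.37 to 3.89) and 4.50 at Cd52 (1460218_at, others 3.08 to 3.63). The remaining 2 were WT mouse 5 of week 11, at 5.28 for Ptprc (1422124_a_at, others 1.96 to 2.81), and SOD1 mouse 4 of week 11, at 3.52 for Tlr4 (1418162_at, others 1.88 to 2.37).

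The SOD1 effect on Fcgr1 (1436625_at) differed between the weeks by the test of the difference itself, 0.80 higher at week 15 (adjusted p = 0.0748). It did not pass with the replicate block, without the 3 arrays that stood apart, with the 18S covariate, or without any of 7 single mice.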

How the results depend on the processing

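Values below are counts of member probe sets that passed the test, except where all probe sets are named. Over all tested probe sets the counts moved as well. At week 15 they were 1839 in the main fit, 1565 with quantile normalization, 1693 without the 3 arrays and 1890 with the 18S covariate. They were 1020 in the fit on that week and 266 with Tukey's comparison. For G-CSF against WT they were 346 in the main fit, 817 with array weights and 35 with Tukey's comparison. At week 15 the main count of 11 was 7 with quantile normalization, 7 without the 3 arrays that stood apart, 7 with the 18S covariate, 4 in a fit on the groups of that week and 1 with Tukey's comparison. At week 11 the count of 2 was 1 without the filter, 1 with quantile normalization, 1 with the replicate block, 0 in the fit on the groups of that week and 0 with Tukey's comparison. Lgals3 also lost its call at week 11 with the 18S covariate. All probe sets called at week 11 numbered 413 in the main fit, 376 without the filter and 216 with quantile normalization. They numbered 155 with the block, 290 in the fit on that week and 56 with Tukey's comparison. For G-CSF against WT the count of 3 was 8 with array weights and 0 with Tukey's comparison. For WT mice between the weeks the count of 0 was 2, both lower, in the fit on these groups only. Over all probe sets that count was 1737 in the main fit and 2520 in that fit. For the difference of the SOD1 effects the count of 1 was 0 with the replicate block, 0 without the 3 arrays and 2 in the fit on fewer groups, and with the 18S covariate only Mmp12 passed, as lower. All probe sets called there numbered 907 in the main fit, 619 with the block, 197 without the 3 arrays and 660 with the covariate. In the fit on fewer groups they numbered 1134. G-CSF against vehicle gave 0 members in all settings. With the replicate block the count at week 15 stayed 11, of which 10 were higher and 1, Tlr4 at 1418162_at, was lower, and the 3 other comparisons kept their counts with that block. At week 15 the count was also 8 without the filter and 9 with array weights. The cause of these changes was not tested.

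Leaving out each mouse gave 6 to 12 at week 15, 1 to 2 at week 11, 2 to 6 for G-CSF against WT, 0 to 2 for the difference of the effects and 0 in the other comparisons. At week 15 the count was 6 or 7 without any 1 of the 7 WT mice or without vehicle-treated mouse 7. For G-CSF against WT it was 6 without G-CSF-treated mouse 1 and 5 without mouse 5. For the difference of the effects the member count was 0 without SOD1 mouse 2 of week 11, WT mice 5 or 6 of week 11, vehicle-treated mice 3 or 6, or WT mice 3 or 6 of week 15, and 2 without SOD1 mouse 6 of week 11. At week 11 Lgals3 lost its call without 19 single mice, of every group, and the count was then 1. At week 15 Tyrobp, Ly86, Lgals3, Lyz2 and Lyz1 at 1436996_x_at kept their calls in 35 of 35 such fits. No call turned direction. For the log2 differences given in full, the settings other than leaving out a mouse gave 310 values on the same side of the test, 51 that no longer passed and 9 that newly passed. Other members were counted only in the totals above.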
